A study of Homo sapiens with 28 samples.

Results

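The 1-Mb stretch around TNS3 on human chromosome 7 (hg19, between megabases 47 and 48) was examined in the open-chromatin peak lists of 28 ATAC-seq libraries. ATAC-seq finds accessible DNA by where a transposase can insert sequencing adapters. The members are all peaks that overlap this window. There were 1178 of them among 1245967 peaks on chromosomes 1 to 22 and X. Merged across libraries, they formed 108 sites, of which 89 were called in 2 or more libraries and 19 in a single one. The lists differ in length, so each was ranked by significance, with 1 as the best peak, and also cut off at rank 19433, the number of peaks in the shortest list. In these lists of equal length the window held 33 sites, of 32972 in the genome. TNS3 lies at about chr7:47314753-47621742 and is transcribed from the minus strand, so its start is at the high end of that interval.

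All libraries came from AN3CA, an established human endometrial carcinoma line. The cells expressed an empty vector (Empty_vector, 4 libraries) or 1 of 12 constructs with 2 libraries each. ARID1A_WT and ARID1B_WT are the wild-type proteins. ARID1A_CBR and ARID1A_delIDR1 are truncations, ARID1A_DDX4 is a hybrid that carries the disordered region of DDX4, and in ARID1A_DBDmut the ARID domain is mutated. ARID1A_AQGscramC1C2, ARID1A_Y42S, ARID1B_S320_G327del, ARID1B_A457_G461del, ARID1B_Block13del and ARID1B_Block9del are called by their titles. For all of these except ARID1B_S320_G327del, 10 libraries of 5 constructs, the genotype label reads empty vector and only the title gives the construct. They were grouped by title. The labels used here do not say whether replicates came from separate cultures, so the tests measure the spread between these libraries or between their construct means. The labelled cell type was not checked against marker genes, since no hg19 annotation was used.

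The deposited lists held 19489 to 76589 peaks, with 24573 to 49528 for Empty_vector and 59826 to 76589 for the wild-type proteins. Sequencing depth is unknown. A date code in the peak names divides the libraries into 6 runs, called A to F. ARID1A_WT, ARID1A_CBR, ARID1A_delIDR1 and ARID1A_DBDmut were split between runs A and B, 1 library in each, along with Empty_vector 1 and 2. ARID1B_WT and ARID1B_S320_G327del are in run C with Empty_vector 3 and 4. Run D is ARID1A_DDX4 alone, run F is ARID1A_AQGscramC1C2 alone, and run E holds ARID1A_Y42S and the other 3 ARID1B deletions. In runs D, E and F no empty vector or wild-type library is present. For ARID1A_DDX4 and ARID1A_AQGscramC1C2 construct cannot be told apart from run.

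TNS3 encodes tensin 3, a focal adhesion protein that links integrin receptors at the cell surface to the actin cytoskeleton and takes part in cell adhesion and migration. ARID1A and ARID1B are alternative large subunits of the canonical BAF complex, an ATP-driven chromatin remodeler that moves nucleosomes and keeps many enhancers accessible. Enhancers often lie inside introns or upstream of the gene they regulate, and a long gene can hold many.

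RefSeq lists 3 TNS3 starts in its promoter table (GRCh38.p14), and the stretches before the first 2, which lie 475 bp apart, are shown because a site over the TNS3 start is described later. Each line is the 250 bases before a start, minus strand, 5′ to 3′. The first is chr7:47582587-47582836 and the second is chr7:47582112-47582361. Capitals mark matches, on either strand, to a KLF/SP motif (GGGCGG) or a CTCF motif (CC, any 3 bases, then AGGGGGC).
TNS3 first start: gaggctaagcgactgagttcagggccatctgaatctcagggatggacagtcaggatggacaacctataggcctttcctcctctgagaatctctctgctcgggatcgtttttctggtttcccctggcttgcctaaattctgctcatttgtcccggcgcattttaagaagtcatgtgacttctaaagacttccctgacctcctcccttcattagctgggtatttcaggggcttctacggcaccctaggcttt
TNS3 second start: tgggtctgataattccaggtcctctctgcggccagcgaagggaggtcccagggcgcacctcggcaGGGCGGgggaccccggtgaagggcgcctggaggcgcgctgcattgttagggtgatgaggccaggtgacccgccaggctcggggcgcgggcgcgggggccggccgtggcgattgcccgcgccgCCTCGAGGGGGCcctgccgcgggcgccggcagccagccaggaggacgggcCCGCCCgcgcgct
The second stretch is 76.8% G or C against 50.4% for the first. It holds 2 KLF/SP matches and 1 CTCF match. At least 1 KLF/SP match was found in 42.6% of 35114 promoter stretches of this length, and at least 1 CTCF match in 1.60%. No marked motif overlaps another. Neither stretch holds a match to AP-1 (TGANTCA, in 6.57% of promoters), TEAD (GGAATG, 11.9%) or RUNX (TGTGGTT, 3.65%). The sequences of the hg19 sites themselves were not used here.

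The window was chosen because sites that appear with the wild-type proteins cluster in it, so its wild-type and empty vector values are a description, without a test. A site called by all 4 wild-type libraries and by no Empty_vector library is called gained, and one with the reverse pattern lost. Of the 33 sites 9 were gained (27.3%), against 5.78% of all sites, and 0 were lost, against 2.27%. Of 2554 1-Mb windows of the genome with any site, 4 held 9 gained sites, the highest number, and the median among the 1017 windows with any was 1. The count depends on the ranking of peaks: with fold enrichment in place of the p-value, 1 site was gained and 2 were lost, with lists of 0.5 of that length 2 were gained, and with whole lists 20. Equal-length lists contained 9 to 11 window peaks in Empty_vector, 20 to 23 in the wild-type libraries and 7 to 23 in the 20 libraries of altered constructs.

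The gained sites were spread over 466885 bp, with centres from 220.3 kb inside TNS3 to 245.4 kb upstream of its start. Inside the gene lay 4 of the 11 sites (36.4%), and upstream of it 5 of 17 (29.4%). None of the 5 sites past the end of the gene was gained. Neighbouring gained sites were 4905 to 109634 bp apart (median 48524). Their widths were 745 to 1503 bp, with a median of 1142 bp beside 974 bp for all 1905 gained sites. In the GRCh38.p14 gene order of RefSeq, the upstream side of TNS3 holds non-coding genes, then PKD1L1 and HUS1. The gained sites were not assigned to target genes.

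**Figure D1:**
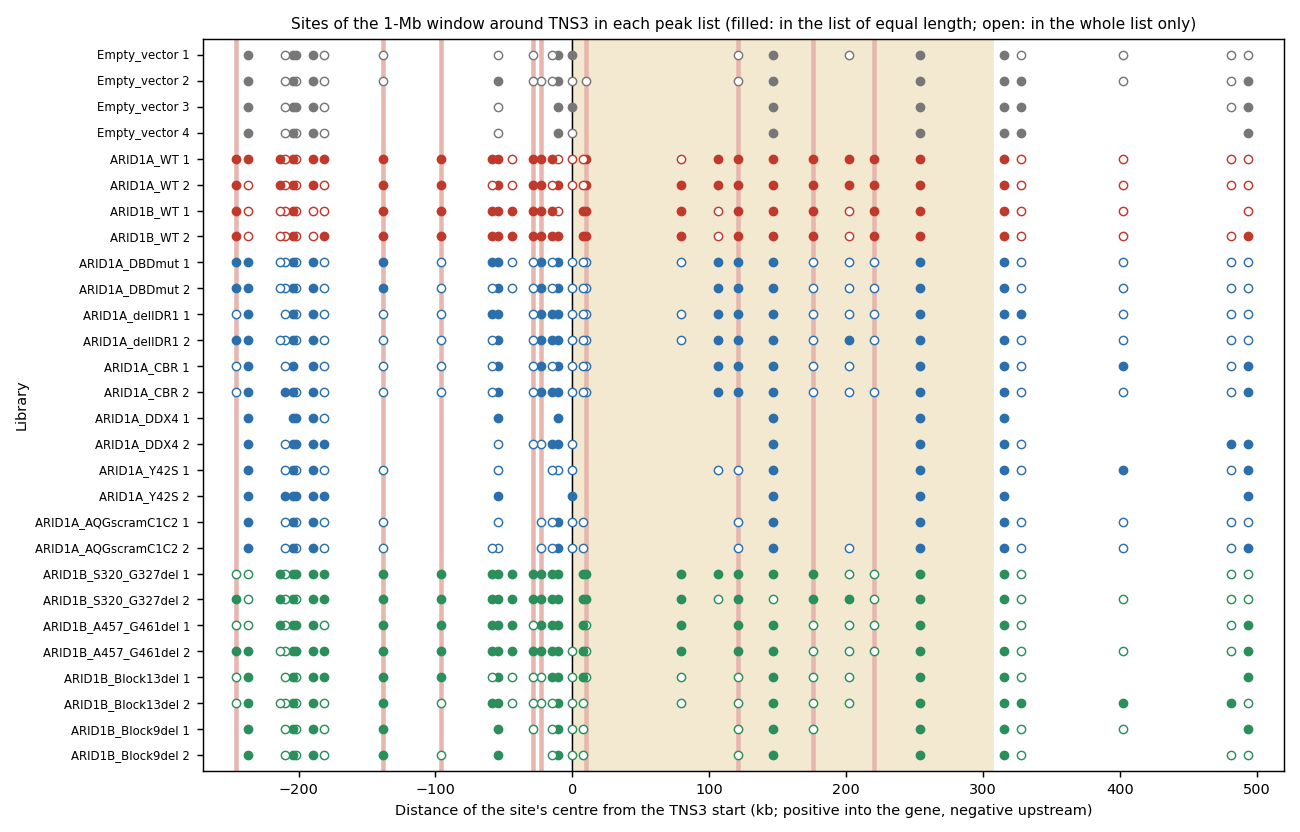
Each row is 1 of the 28 libraries and each point is 1 of the 33 sites of the window, placed by its distance in kb from the TNS3 start (shaded: the gene; pink lines: the 9 gained sites; grey, Empty_vector; red, wild type; blue, altered ARID1A; green, altered ARID1B). Filled points are peaks within the list of equal length and open points are peaks in the whole list only; the pink lines hold filled points in all 4 wild-type rows and in no Empty_vector row.

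Gained sites are taken in order of their mean rank by significance in the wild-type lists, and strong and weak refer to this rank. The strongest gained site lay 138.3 kb upstream of the TNS3 start (chr7:47759471-47760612, 1142 bp). Its peak ranked 4871 and 5646 with ARID1A_WT and 1825 and 2371 with ARID1B_WT, with a fold enrichment over the caller's background of 5.12 to 6.11. These fold values and all others below are the authors' own. By mean rank in the wild-type lists it was the 39th of the 1905 gained sites. Empty_vector 1 and 2 listed it at ranks 43117 and 45733 of their whole lists, and Empty_vector 3 and 4 had no peak. In the libraries that the choice of the window did not use, ARID1B_S320_G327del had it at 555 and 1248, ARID1B_A457_G461del at 3732 and 2459, and ARID1A_DBDmut at 8901 and 9530. ARID1B_Block13del followed at 10956 and 12739 and ARID1B_Block9del at 17100 and 17066. Of the 9 gained sites it was the only one in the equal-length lists of ARID1B_Block9del. ARID1A_delIDR1 (24124 and 21564), ARID1A_CBR (36003 and 40441), ARID1A_AQGscramC1C2 (27662 and 30476) and ARID1A_Y42S 1 (25893) had it only in the whole lists.

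The next strongest was 22.8 kb upstream (chr7:47644124-47644923), with ranks of 7333, 6666, 7058 and 7484 in the wild-type libraries, the narrowest span of ranks among the 9. It was in the equal-length lists of both libraries of 5 altered constructs. Those ranks were 11071 and 9526 with ARID1A_DBDmut, 8790 and 10553 with ARID1A_delIDR1, 9600 and 6441 with ARID1A_CBR, 3733 and 2519 with ARID1B_S320_G327del, and 7076 and 7029 with ARID1B_A457_G461del. ARID1B_Block13del had it at 22757 and 21281, just past the equal length, and ARID1B_Block9del had no peak. Thus the 3 altered ARID1A constructs of runs A and B all kept this site in the equal-length lists, and ARID1A_delIDR1 and ARID1A_CBR did not keep the site 138.3 kb upstream there. Of the Empty_vector libraries, only Empty_vector 2 listed the site 22.8 kb upstream, at rank 49427 of its whole list.

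The third was 120.7 kb inside TNS3 (chr7:47500531-47501520), the strongest gained site of the gene. Wild-type ranks were 7711, 9462, 7184 and 10058, with fold enrichments of 5.42 to 6.80. The same 5 altered constructs called it in the equal-length lists of both libraries: ARID1A_DBDmut at 14003 and 13620, ARID1A_delIDR1 at 13100 and 16128, ARID1A_CBR at 12384 and 16461, ARID1B_S320_G327del at 4526 and 5673, and ARID1B_A457_G461del at 12151 and 6174. In whole lists it was also present in Empty_vector 1 and 2 (38324 and 38465), in ARID1A_Y42S 1 (26096) and in both libraries of ARID1B_Block13del (20990 and 20143), ARID1B_Block9del (25555 and 29553) and ARID1A_AQGscramC1C2 (27656 and 34539).

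Of the gained sites farther from the strongest ranks, that at 245.4 kb upstream (chr7:47866581-47867721) ranked 11079, 9287, 8321 and 8641 in the wild-type libraries. In equal-length lists both ARID1A_DBDmut libraries had it (17386 and 18030), as did 1 library each of ARID1A_delIDR1 (18339), ARID1B_S320_G327del (17718) and ARID1B_A457_G461del (19073). No Empty_vector list held it at any length. At 96.1 kb upstream (chr7:47717099-47718505) the wild-type ranks were 13538 and 12449 with ARID1A_WT and 7804 and 6401 with ARID1B_WT. The altered constructs that had it in equal-length lists were all of ARID1B: ARID1B_S320_G327del (3085 and 3271), ARID1B_A457_G461del (5019 and 6221) and ARID1B_Block13del 1 (17055). ARID1A_DBDmut (20417 and 26944), ARID1A_delIDR1 (31167 and 27455) ARID1A_CBR (43104 and 42391), ARID1B_Block13del 2 (23164) and ARID1B_Block9del 2 (28673) listed it below the equal length, and Empty_vector did not list it.

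The other 4 gained sites were weaker by rank and were in the equal-length lists of few altered constructs. One lay 10.2 kb inside TNS3 (chr7:47611155-47611899), with wild-type ranks of 16823, 13895, 9044 and 10527, and in equal-length lists only ARID1B_S320_G327del also had it (7544 and 5404). Empty_vector 2 held it at 43343 of its whole list. The site 175.6 kb inside the gene (chr7:47445397-47446899) ranked 16416 and 15076 with ARID1A_WT and 10102 and 10121 with ARID1B_WT. Here too ARID1B_S320_G327del was the only altered construct (11905 and 10620), and no Empty_vector list held it. At 28.8 kb upstream (chr7:47649829-47651225) the wild-type ranks were 15629, 18458, 10147 and 10832. ARID1B_S320_G327del (9816 and 12120) and ARID1B_A457_G461del 2 (13598) shared it. Empty_vector 1 and 2 held it at 42563 and 43922 of their whole lists. The last, 220.3 kb inside the gene (chr7:47400837-47401979), ranked 14828, 14715, 14289 and 15203 and was in no equal-length list of an altered construct. Whole lists held it in 9 of the 20 altered libraries, at ranks of 25378 (ARID1B_S320_G327del 2) to 57877 (ARID1A_CBR 2), and in no Empty_vector library. In the order given, the median wild-type fold enrichments of these 4 sites were 3.93, 4.96, 5.22 and 5.92. The median was 5.57 at the site 138.3 kb upstream and 4.94 at the site 22.8 kb upstream, so fold enrichment gave another order than rank.

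**Figure D2:**
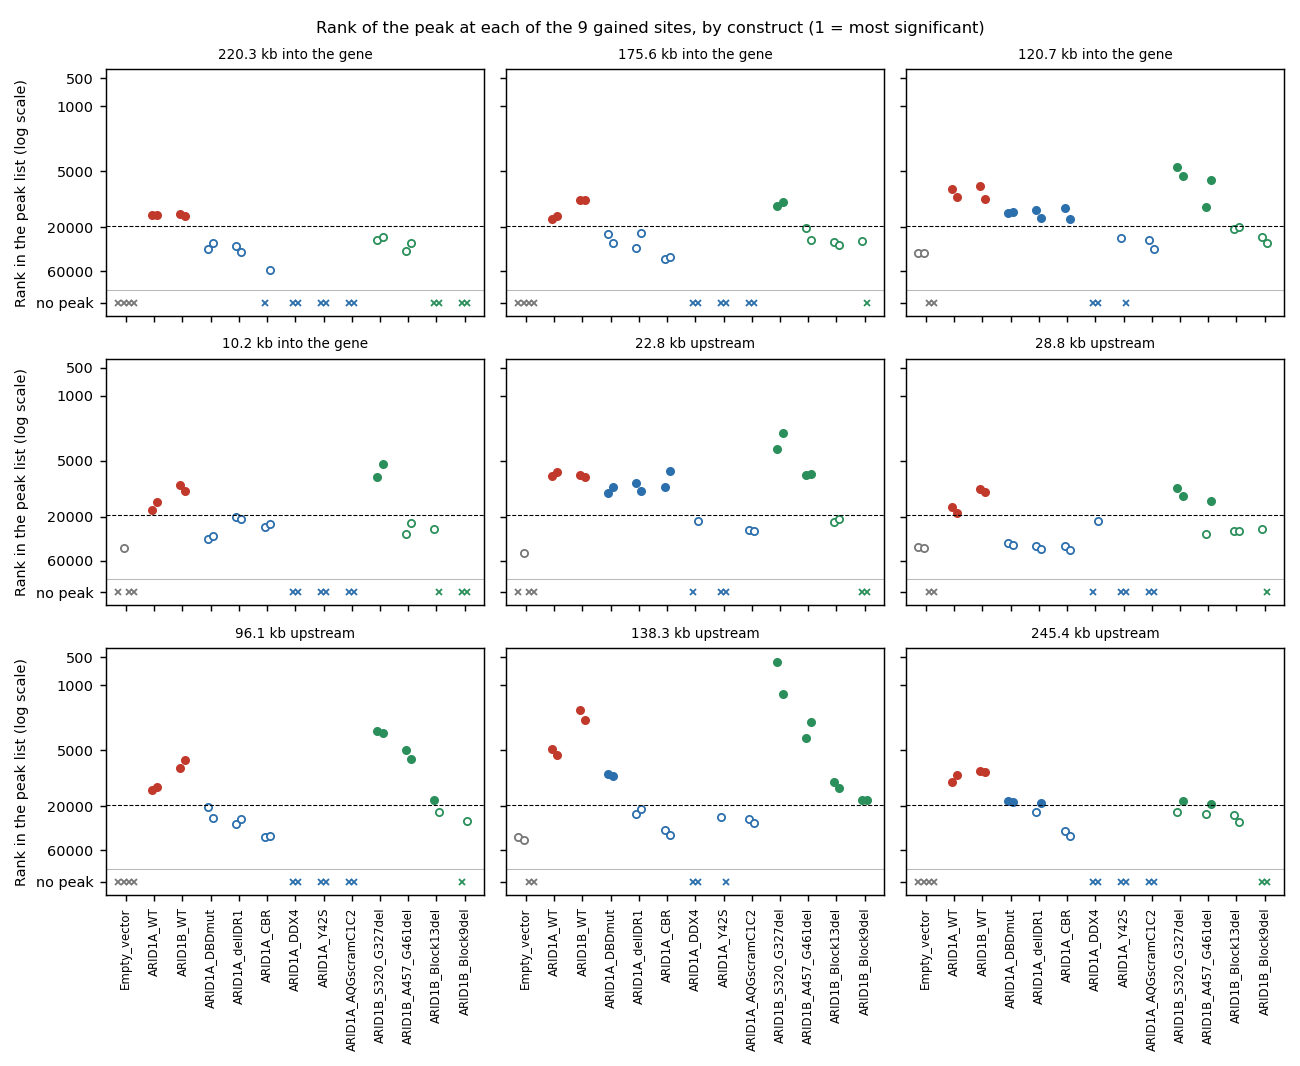
Rank of the peak at each of the 9 gained sites (y axis, log scale, 1 at the top) by construct (x axis), 1 point per library; filled points lie within the equal length of 19433 (dashed line), open points are in the whole list only, and crosses are libraries without a peak. At the site 138.3 kb upstream ARID1B_S320_G327del stands at 555 and 1248, and at the site 220.3 kb inside the gene only wild-type points lie above the line.

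Counts of the 9 sites per library differed between the constructs at this locus. Between constructs of different runs, construct and run cannot be told apart, and the wild-type libraries that define the sites are in runs A, B and C. In equal-length lists ARID1B_S320_G327del called 7 and 8, ARID1B_A457_G461del 4 and 6, ARID1A_DBDmut 4 and 4, ARID1A_delIDR1 2 and 3, ARID1A_CBR 2 and 2, ARID1B_Block13del 2 and 1, and ARID1B_Block9del 1 and 1. ARID1A_DDX4, ARID1A_Y42S and ARID1A_AQGscramC1C2 called 0 in both libraries. With 9 sites, a count of 0 has a 95% Wilson interval of 0 to 29.9% and a count of 4 one of 18.9% to 73.3%. These intervals treat the sites as independent draws, but the 9 are a fixed set shared by all libraries. They do not measure the uncertainty of a construct. The libraries of ARID1A_delIDR1, ARID1A_CBR and ARID1B_Block13del overlapped in their counts, and so did those of ARID1A_DBDmut and ARID1B_A457_G461del.

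As a mean, ARID1B_S320_G327del called 83.3% ± 7.86 of the 9 sites, ARID1B_A457_G461del 55.6% ± 15.7, ARID1A_DBDmut 44.4% ± 0 and ARID1A_delIDR1 27.8% ± 7.86 (SD, n = 2 each). ARID1A_CBR called 22.2% ± 0, ARID1B_Block13del 16.7% ± 7.86 and ARID1B_Block9del 11.1% ± 0 (SD, n = 2 each). Over the 1896 gained sites elsewhere, ARID1B_S320_G327del called 94.6% ± 0.448, ARID1B_A457_G461del 82.0% ± 0.932, ARID1A_DBDmut 46.9% ± 2.31 and ARID1A_delIDR1 44.8% ± 1.64 (SD, n = 2 each). The share elsewhere was 19.3% ± 0.298 for ARID1A_CBR, 31.1% ± 2.09 for ARID1B_Block13del and 3.40% ± 0.858 for ARID1B_Block9del (SD, n = 2 each). The constructs with 0 calls at TNS3 called 7.28% ± 0.895 (ARID1A_DDX4), 4.51% ± 3.02 (ARID1A_Y42S) and 2.45% ± 0.410 (ARID1A_AQGscramC1C2) elsewhere (SD, n = 2 each). The difference between the locus and the rest of the genome was not tested.

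The altered ARID1B constructs had a mean of 41.7% ± 34.1 (SD, n = 4 constructs) and the altered ARID1A constructs 15.7% ± 18.7 (SD, n = 6 constructs). The difference was 25.9 percentage points and did not reach the threshold (two-sided exact permutation of construct means, p = 0.171, adjusted p = 0.171 over 2 tests). Only 2 of the 4 ARID1B constructs lay above every ARID1A construct. Within run E, the 3 ARID1B deletions exceeded ARID1A_Y42S by 27.8 percentage points. Without run E, where ARID1B_S320_G327del is the only ARID1B construct and protein and run differ together, the difference was 64.4 points. With 1 construct on one side, an exact permutation test gives p = 0.5 and p = 0.167 for these, and neither design can pass the threshold. With the replicate number as a block, which treats single libraries as independent, the same difference had p = 0.0424 (exact permutation test). With peaks ranked by fold enrichment the difference was 17.6 points (p = 0.0143, exact permutation of construct means). That value is for the 9 sites found with the p-value ranking. With fold ranking only 1 site of the window was gained.

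Among the 4 constructs of run E the counts were 0 and 0 with ARID1A_Y42S, 4 and 6 with ARID1B_A457_G461del, 2 and 1 with ARID1B_Block13del, and 1 and 1 with ARID1B_Block9del. These constructs share a run. Both libraries of ARID1B_A457_G461del lay above all the others and both of ARID1A_Y42S below, while ARID1B_Block13del and ARID1B_Block9del overlapped. The spread between them had p = 0.0286 and failed the correction (exact permutation test over libraries, adjusted p = 0.0571 over 2 tests; 0.00952 is the smallest p of this design). The exact permutation p was 0.0857 without either library of ARID1A_Y42S and 0.0833 with the replicate block. With calls in whole lists it was 0.00952, and the sum of squares between constructs rose from 3503 to 9938. The whole lists of run E differ in length on chromosomes 1 to 22 and X. They held 52711 and 50726 peaks for ARID1B_A457_G461del and 33224 and 31383 for ARID1B_Block13del. ARID1B_Block9del had 30104 and 30102, and ARID1A_Y42S 28855 and 19433. The part of list length in this whole-list spread was not tested.

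**Figure D3:**
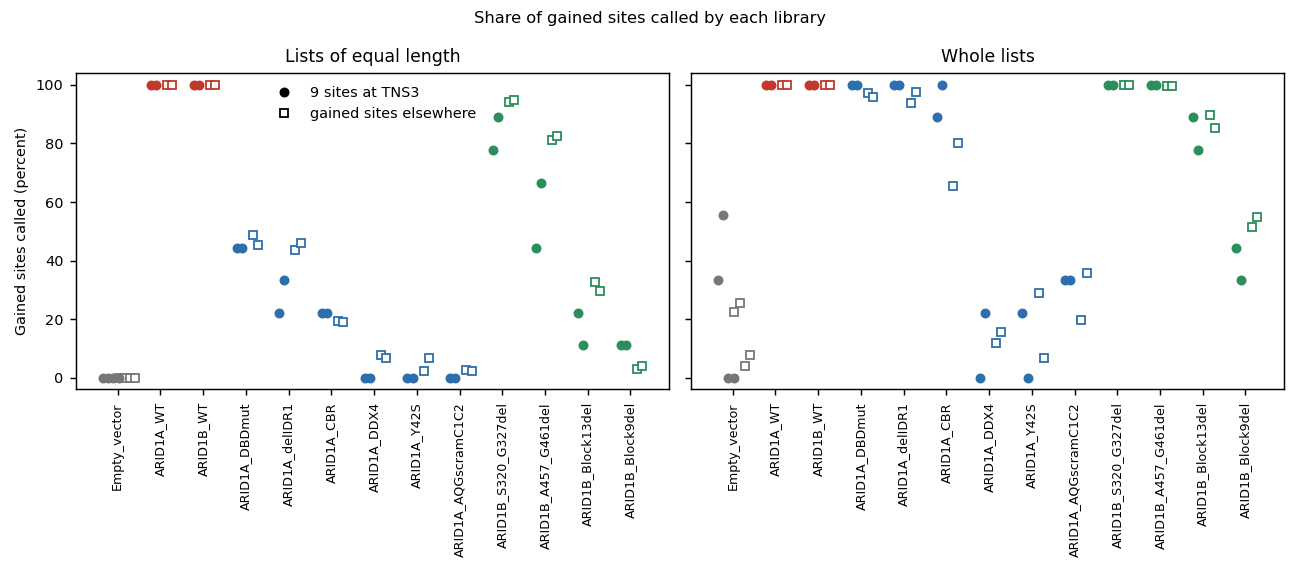
Percent of gained sites called (y axis) by each library of the 13 groups (x axis), in lists of equal length (left) and whole lists (right); filled circles are the 9 sites at TNS3 and open squares the gained sites elsewhere. Wild-type and Empty_vector points at 100% and 0% on the left are fixed by the definition of a gained site.

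Whole lists held more of the same 9 sites, at lower rank, in most altered libraries, and the number differed by construct. All 9 were in the whole lists of both libraries of ARID1A_DBDmut, ARID1A_delIDR1, ARID1B_S320_G327del and ARID1B_A457_G461del. ARID1A_CBR had 8 and 9, ARID1B_Block13del 8 and 7, ARID1B_Block9del 4 and 3, ARID1A_AQGscramC1C2 3 and 3, ARID1A_DDX4 0 and 2, and ARID1A_Y42S 2 and 0. The share of gained sites elsewhere in whole lists also differed by construct. It was 97.2% and 96.0% for ARID1A_DBDmut, 93.9% and 97.7% for ARID1A_delIDR1, and 99.5% or more for ARID1B_S320_G327del and ARID1B_A457_G461del. The shares elsewhere were 65.5% and 80.0% for ARID1A_CBR, 89.6% and 85.3% for ARID1B_Block13del, and 51.6% and 54.9% for ARID1B_Block9del. They were 19.6% and 35.6% for ARID1A_AQGscramC1C2, 11.97% and 15.8% for ARID1A_DDX4, and 28.9% and 6.65% for ARID1A_Y42S. Empty_vector had 3, 5, 0 and 0 of the 9, beside 22.5%, 25.6%, 4.11% and 7.75% elsewhere, so the libraries of runs A and B listed some of them and those of run C did not. The whole lists of Empty_vector 1 and 2 were longer than those of Empty_vector 3 and 4, and the part of list length in these counts was not tested.

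The gained sites in the gene and those upstream of it were called unequally by the altered constructs. In equal-length lists the 20 altered libraries made 14 of 80 possible calls (17.5%) at the 4 gained sites inside TNS3 and 33 of 100 (33.0%) at the 5 upstream sites. With altered ARID1B the shares were 25.0% in the gene and 55.0% upstream, and with altered ARID1A 12.5% and 18.3%. ARID1B_A457_G461del showed the widest gap, with 1 of 4 sites in the gene in both libraries against 3 and 5 of 5 upstream. In whole lists the shares over the 20 libraries were 62.5% and 71.0%. The sites also differ in strength in the wild-type lists, and the order depends on the measure. Mean wild-type ranks were 8604, 12572, 12929 and 14759 in the gene. Upstream they were 3678, 7135, 9332, 10048 and 13766.5. For the sites in the same order, median wild-type fold enrichments were 6.32, 3.93, 4.96 and 5.92 in the gene. Upstream the medians were 5.57, 4.94, 5.76, 5.37 and 5.22. The libraries share their sites, and neither these differences nor the part of site strength in them was tested.

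Within runs, the sites that came with each wild-type protein could be counted against controls of the same run. Both ARID1A_WT libraries called 12 of the 33 sites (36.4%) that neither Empty_vector 1 nor 2 called, against 9.19% of all sites, and 0 went the other way (6.91% of all sites). Both ARID1B_WT libraries called 15 (45.5%) that Empty_vector of run C lacked, against 12.6%, and 3 went the other way (9.09%, against 9.42%). The 12 held 6 sites of the gene and the 15 also 6.

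Within the equal length, some sites were called with only 1 of the wild-type proteins. Both ARID1A_WT libraries, and no ARID1B_WT or Empty_vector library, called 3 of the 33 sites in equal-length lists (9.09%, against 1.63% of all sites). Both ARID1B_WT libraries, and no ARID1A_WT or Empty_vector library, called 2 (6.06%, against 4.63%). In whole lists all 4 wild-type libraries had a peak at each of these sites, so they differ in rank and not in presence. Protein and run differ together here, since ARID1A_WT is in runs A and B and ARID1B_WT in run C.

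Just outside the gained class stood 4 sites. Inside the gene, chr7:47541894-47542483 ranked 16915 with ARID1A_WT 2 and 5235 and 9106 with ARID1B_WT, and missed with ARID1A_WT 1 at 22106. Upstream, chr7:47636108-47636805 missed with ARID1A_WT 2 at 22881, and chr7:47680459-47681116 with ARID1A_WT 2 at 19685. All 4 wild-type libraries called chr7:47674772-47676779 (3829 to 11636), and so did Empty_vector 2 at 16715. The gained site nearest to the threshold was the one 28.8 kb upstream, at 18458 in ARID1A_WT 2.

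The site over the TNS3 start was listed by more Empty_vector than wild-type libraries. It spans chr7:47621196-47622369 and covers the high end of the gene. Whole lists held it in all 4 Empty_vector libraries, at ranks of 19119, 31117, 19198 and 24624, and in both ARID1A_WT libraries at 71387 and 60687. Neither ARID1B_WT library had a peak there. Its fold enrichment was 2.72 to 4.22 in Empty_vector and 2.18 and 2.28 with ARID1A_WT. No Empty_vector list is long enough to hold a rank past 49528. In equal-length lists 2 Empty_vector libraries and 0 wild-type libraries had the site. This difference of 2 libraries was 0 with peaks ranked by fold enrichment and 0 with lists of 0.5 of the length.

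Among the altered constructs, 16 of 20 libraries had this start site in whole lists. The libraries without it were both of ARID1B_S320_G327del, ARID1B_A457_G461del 1 and ARID1A_DDX4 1, and the other ARID1B_A457_G461del library had it at 48606. It ranked 25157 and 17601 with ARID1A_Y42S, 28371 and 27948 with ARID1A_AQGscramC1C2, 27556 and 27335 with ARID1B_Block9del, and 31504 and 25770 with ARID1B_Block13del. ARID1A_DBDmut had it at 36919 and 30492, ARID1A_delIDR1 at 39839 and 39269, and ARID1A_CBR at 26803 and 38211.

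In all 28 equal-length lists 3 sites of the window were present, which is 9.09% of its sites against 30.1% of all sites. One lies inside TNS3 at 254.2 kb from the start (chr7:47366597-47368547, 1951 bp). It ranked 8951, 7946, 8522 and 6436 in Empty_vector, 3007 and 2043 with ARID1A_WT, and 1379 and 782 with ARID1B_WT. The groups did not overlap, and this separation was found at 2.24% of the 9922 sites that are in all lists (1 of the 3 here), and the reverse at 4.86% (0 of the 3). Among the altered constructs it ranked 667 and 1546 with ARID1B_S320_G327del, 3182 and 1382 with ARID1B_A457_G461del, 2281 and 2344 with ARID1A_delIDR1, and 2416 and 3201 with ARID1A_CBR. In 5 of these 8 libraries the rank was within the wild-type range of 782 to 3007. The others ranked 3015 (ARID1B_Block13del 1) to 7585 (ARID1B_Block9del 1).

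The second of these sites, 204.3 kb upstream (chr7:47824728-47827292, 2565 bp), ranked 3918, 6192, 2266 and 1197 in Empty_vector and 1590 to 3296 in the wild-type libraries, so the groups overlapped. The third, 8.5 kb past the end of the gene (chr7:47305732-47306742), ranked 12100 to 14101 in Empty_vector and 8642 to 16665 in the wild-type libraries, which also overlapped. Over all 28 libraries they ranked 544 to 8958 and 8139 to 19398.

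**Figure D4:**
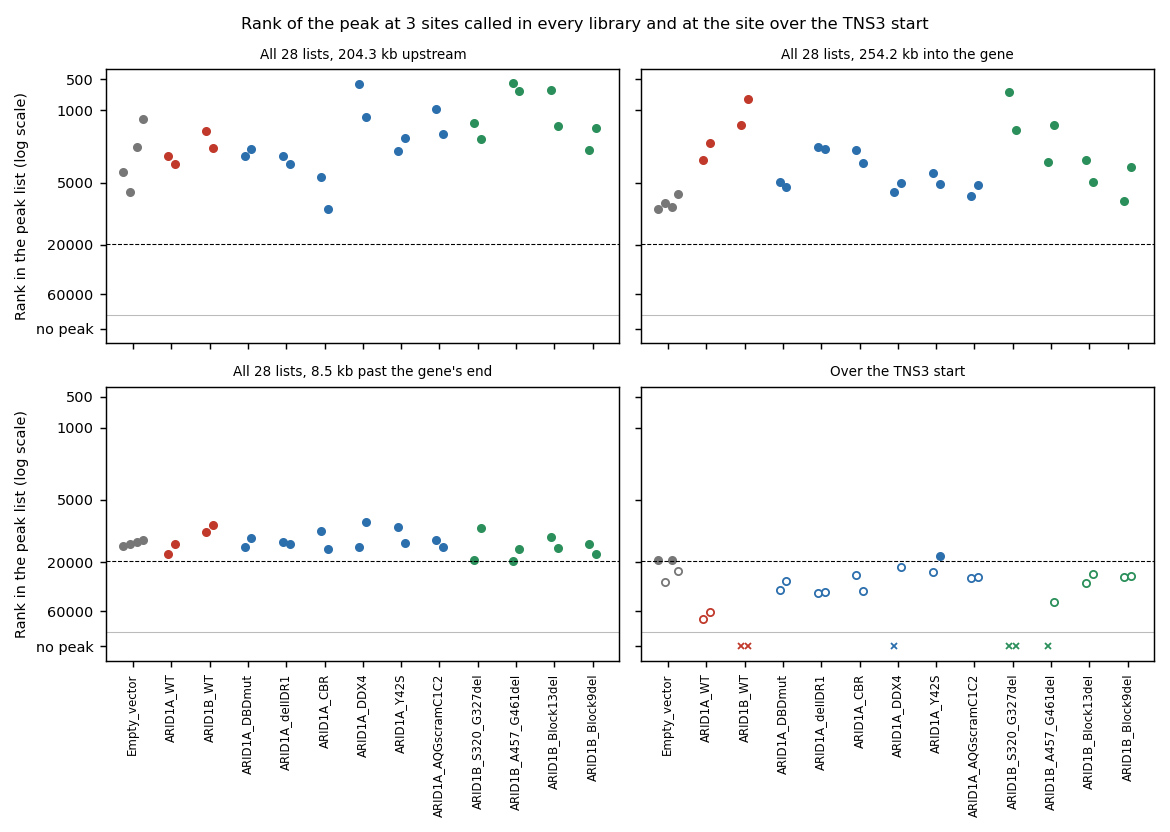
Rank of the peak (y axis, log scale, 1 at the top) by construct (x axis), 1 point per library, at the 3 sites in all 28 equal-length lists and at the site over the TNS3 start; symbols and the dashed line at 19433 as in the plot of gained sites. At 254.2 kb into the gene the wild-type points (782 to 3007) lie above all Empty_vector points (6436 to 8951), and at the start the ARID1B_WT points are crosses.

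In whole lists 20 of 89 sites were gained (22.5%, against 18.2% of all sites), 7 inside the gene, 11 upstream and 2 past its end, and 0 were lost (0.0828% of all sites). Only 4 of the 20 were also gained in equal-length lists. Of the other 16, those with the highest median fold in the wild-type lists were chr7:47541140-47542483 in the gene (5.71), chr7:47749804-47750361 upstream (5.49), chr7:47192559-47193364 past the end (4.99), chr7:47514774-47515301 in the gene (4.77) and chr7:47665450-47666636 upstream (4.74). Each of the 20 was called by at least 3 and at most 16 of the 20 altered libraries, with a median of 8. Some gained sites of the equal-length lists were not gained here, among them those 138.3 kb and 22.8 kb upstream and 120.7 kb inside the gene. Each of these was in the whole lists of 1 or 2 Empty_vector libraries.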

How the data were processed

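Each of the 28 libraries has 1 deposited broadPeak list, called per library. The submitters' processing notes name build hg19, MACS2, SAMtools 0.1.19, Picard 2.8.0, Bowtie2 and bcl2fastq. What options and control the caller used, and whether reads were shifted for the transposase, was not given in the sources used here. The series' design text describes CUT&Tag, while titles name ATAC-seq, which was followed. The values deposited per peak are the ratio of signal to the caller's background (fold enrichment), −log10 of the p-value and of the q-value (the latter at least 3.00 to 3.03, by list) and a score made from the q-value. The files hold no read counts, so depth is unknown and a missing peak gives no signal.

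Lists were ranked by −log10 p-value, trimmed to 19433 peaks, merged where they share 1 bp, and kept as sites in at least 2 libraries (Python 3.11.15, numpy 2.4.6, pandas 2.3.3). Calling a site needed 1 bp of overlap. At a site with several peaks the best-ranked one was used. Exact permutation tests used libraries or construct means, with Benjamini-Hochberg adjustment, and were tested on simulated data. Sites were named by rule: every gained or lost site, the site over the TNS3 start, sites 1 library short of gained, the 3 best-ranked constant sites, and the 5 whole-list gained sites of highest fold. The members and lists were chosen with earlier results of these data known.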

Additional observations from a re-analysis of the deposited data

How the results depend on the processing

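The count of 9 gained sites was 20 with whole lists, 2 with lists of 0.5 of that length, 1 with peaks ranked by fold enrichment and 15 with ARID1B_WT against Empty_vector of run C. It stayed at 9 with a 50% overlap, was 12 with ARID1A_WT against Empty_vector of runs A and B, and was 9 to 11 without each wild-type or Empty_vector library. The count of 0 lost sites was 2 with fold ranking, 3 within run C, and 0 to 1 without single libraries (1 without ARID1A_WT 1 and 1 without Empty_vector 1). The difference of 25.9 percentage points between altered ARID1B and ARID1A constructs was 23.1 to 28.7 without each library (exact permutation p = 0.138 to 0.219). By exact permutation it was 17.6 with fold ranking (p = 0.0143), 22.2 with whole lists (p = 0.338) and 18.1 with 0.5 of the length (p = 0.205). With the replicate block it was 25.9 (exact permutation p = 0.0424). The sum of squares between the constructs of run E (percentage points squared) was 3503, with the same value under the replicate block (exact permutation p = 0.0833). By exact permutation it was 9938 with whole lists (p = 0.00952), 2269 with 0.5 of the length (p = 0.143), 1404 with fold ranking (p = 0.0667) and 1349 to 3563 without single libraries (p = 0.0190 to 0.0857), the lowest without ARID1B_A457_G461del 2. These p-values are unadjusted. They are for the same 9 sites in each setting, although with fold ranking only 1 site of the window was gained. The comparisons within runs A and B, within run C, within run E and without run E were chosen after seeing the data. The cause of these changes was not tested. Replicate numbers mark the run in runs A and B only, so elsewhere the libraries share only a number. The number of libraries per construct, 2, limits the precision.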

Other observations

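The sites called with only 1 of the wild-type proteins in equal-length lists are described here by 1 example each, chosen after their values were seen. A site inside TNS3, chr7:47514776-47515301, ranked 14679 and 18313 with ARID1A_WT and 30683 and 30806 with ARID1B_WT. It was also in the equal-length lists of ARID1A_DBDmut (17685 and 18891), ARID1A_delIDR1 (15201 and 11383) and ARID1A_CBR (17712 and 18197), and in no list of the ARID1B deletions of run E. The ARID1A libraries named come from runs A and B, whose Empty_vector libraries had no peak there. In run C, ARID1B_S320_G327del listed it at 15535 and 20762, the first within the equal length.

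The site chr7:47665450-47666636, at 44.3 kb upstream of the TNS3 start, ranked 9490 and 6916 with ARID1B_WT, 9266 and 9479 with ARID1B_S320_G327del and 7300 and 11552 with ARID1B_A457_G461del. ARID1B_Block13del listed it at 26344 and 25544, ARID1A_WT at 35700 and 36050 and ARID1A_DBDmut at 53536 and 42404. ARID1A_delIDR1, ARID1A_CBR, ARID1A_DDX4, ARID1A_Y42S, ARID1A_AQGscramC1C2, ARID1B_Block9del and Empty_vector had no peak there at any list length. The ARID1B libraries that had it come from runs C and E. Whether these sites differ between the proteins beyond the spread of 2 libraries was not tested.

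Other windows resembled this one. Among the 47 other 1-Mb windows with at least 5 gained sites, the share of gained sites called by the 20 altered libraries followed that of the TNS3 window with a median Pearson correlation of 0.891. The 5 most alike were on chromosome 10 from 114000001 (0.948), chromosome 3 from 72000001 (0.945), chromosome 8 from 128000001 (0.944), chromosome 5 from 149000001 (0.941) and chromosome 10 from 121000001 (0.930). The windows share libraries and list lengths, so these values are a description.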
